A study of Mus musculus with 2 samples.

Results

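The day 1 array compared bone marrow stromal cells of C57BL/6 mice taken 1 day after total body irradiation (TBI) with 9.5 Gy against the same kind of cells from unirradiated mice. It was 1 two-colour oligonucleotide array, with unirradiated RNA in the Cy5 channel and day 1 RNA in the Cy3 channel. Every gene with a deposited ratio on it was taken as a member, after probes were averaged by gene symbol and values were centred on their median. This gave 10434 of the 16390 genes named in the series, or 63.7%. A second array of the same layout, used here only for values set beside those of day 1, compared cells 3 days after the same dose with unirradiated cells and gave ratios for 11404 genes. Both conditions share strain and cell label, no transgene or other treatment is named, and the sources used here give no sex, age or pooling. The series text counts 6 mice without saying how they were divided.

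Total body irradiation at this dose destroys most dividing blood progenitors within days, while the stromal framework of the marrow survives longer. That framework contains reticular and osteoblastic cells, adipocytes, pericytes and sinusoidal endothelium, and it supplies the cytokines, matrix and adhesion molecules that hold blood cells in place. Radiation activates the p53 pathway, which arrests the cell cycle and can trigger apoptosis, and dying cells are a known stimulus for neutrophil recruitment and for interferon and cytokine production. The sources used here do not give the method by which the stromal fraction was isolated.

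Each value below is a log2 ratio, so 1 is 2-fold and 3 is 8-fold, and a positive value is read as higher in irradiated RNA. That direction is likely, not established, because the numerator of the deposited ratio is not stated. It rests on known radiation biology: p53 targets had medians of 1.52 at day 1 and 1.03 at day 3. Mitotic exit genes had a median of -2.79 at day 3. At day 1 their median was 0.89, on the side opposite to a loss of dividing cells, so that value does not help this reading. If the ratio ran the other way, every "higher" and "lower" would be exchanged, and those 2 lists are no evidence of their own direction. With 1 array there is no replicate error, so no test was possible and only sizes are given. The only spread available is that between different probes of a gene, with a pooled SD of 0.76 over 85 genes. Because these are ratios, the stromal label cannot be checked as a level: 25 of 27 named mesenchymal markers had a ratio, and so did 20 of 21 pan-leukocyte genes. Fewer cells of a type and less RNA per cell cannot be told apart in such data.

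At day 1 the array was dominated by very high ratios of myeloid genes. Of 10434 genes, 2047 (19.6%) were 2-fold or more higher and 1157 (11.1%) 2-fold or more lower, and the median over genes was 0 by construction. At 4-fold the split was 803 (7.70%) against 116 (1.11%). Beyond 32-fold there were 139 genes on the higher side and 1 on the lower side, Car2. The 5th and 95th percentiles were -1.38 and 2.57. The sides were more uneven when another reference was set to 0. With the peak of the density of genes at 0, a shift of 0.19, 76.1% of genes past 2-fold were higher, against 63.9% in the main setting. Setting the ribosomal protein median to 0, which moves all genes by 0.51, gave a share of 89.9%.

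**Figure D1:**
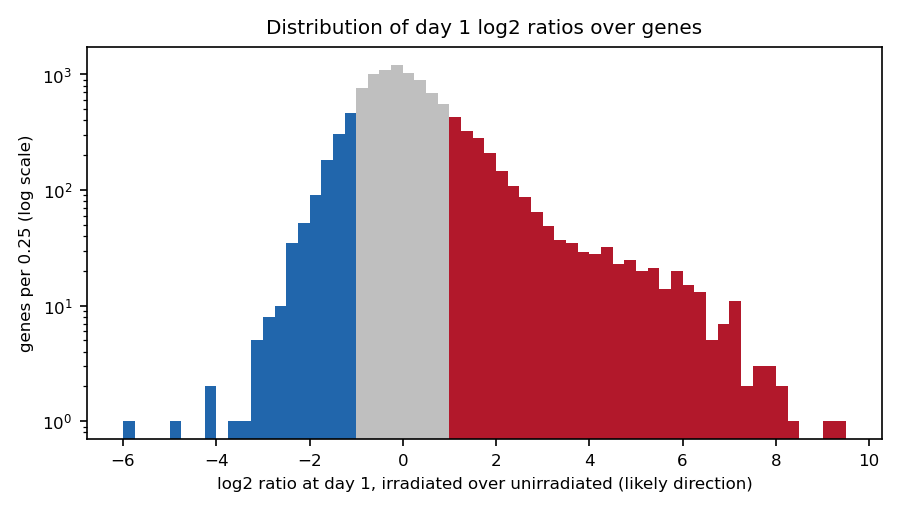
Histogram of the day 1 log2 ratio over 10434 genes in steps of 0.25, with a log scale on the vertical axis; red bars are 2-fold or more higher, blue bars 2-fold or more lower. The right tail reaches 9.32 and the left tail -5.77, with 64 genes beyond 64-fold on the higher side and 0 on the lower side.

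The 20 highest genes belonged largely to neutrophils and activated phagocytes. The neutrophil chemoattractant Cxcl2 stood at 9.32 (639-fold), the schlafen gene Slfn4 at 9.04 (527-fold) and the chitinase-like protein gene Chil3 at 8.28. The leukocyte tetraspanin gene Cd53 was at 8.17 and Ptprc, which encodes the pan-leukocyte antigen CD45, at 7.12. Ccr1 (7.64), a chemokine receptor of neutrophils and monocytes, and S100a8 (7.61), a calcium-binding alarmin of neutrophil cytosol, followed. The C-type lectin receptor genes Clec4e (7.39) and Clec4a2 (7.22) stood close together. The cytokine genes Il1b (7.36) and Il1f9 (7.16) both belong to the interleukin-1 family. Acod1 (7.17) encodes the itaconate-forming enzyme of activated macrophages, and Myo1f (7.10) a myosin of leukocytes. Ankrd22 (7.71) encodes an ankyrin repeat protein. Several of the 20 had a ratio at day 1 only: Cd53, Csf3r, Sirpb1a, Ankrd22, Clec4e, Clec4a2, Cebpe, Il1f9, Ptprc and Myo1f. A gene that passed the authors' filter only through the irradiated channel had to be high, so such genes add no support. Of the 200 highest genes, which spanned 4.36 to 9.32, 105 were in a fixed list, including 41 in the innate lists and 34 in the myeloid lists.

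The 20 lowest genes were led by the erythroid programme. Car2, carbonic anhydrase of red cells and osteoclasts, stood at -5.77 (54.6-fold lower). Hemgn (-4.80) is an erythroid nuclear factor, and Gfi1b (-4.09) and Gata1 (-4.06) are transcription factors of erythroid and megakaryocytic cells. Tfr2 (-3.18), the second transferrin receptor, and Alad (-3.08), an early enzyme of haem synthesis, were among them with the erythropoietin receptor gene Epor (-2.80) and the erythroid translocator protein homologue Tspo2 (-2.74). Others have no erythroid role in the fixed lists: Aldh1a1 (-3.51), a retinaldehyde dehydrogenase, Abcb4 (-3.08), a phospholipid transporter, A2m (-2.84), a protease inhibitor, and Kera (-2.75), which encodes the matrix proteoglycan keratocan. Of the 200 lowest genes, 15 were in the erythroid lists and 9 in the stromal lists.

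**Figure D2:**
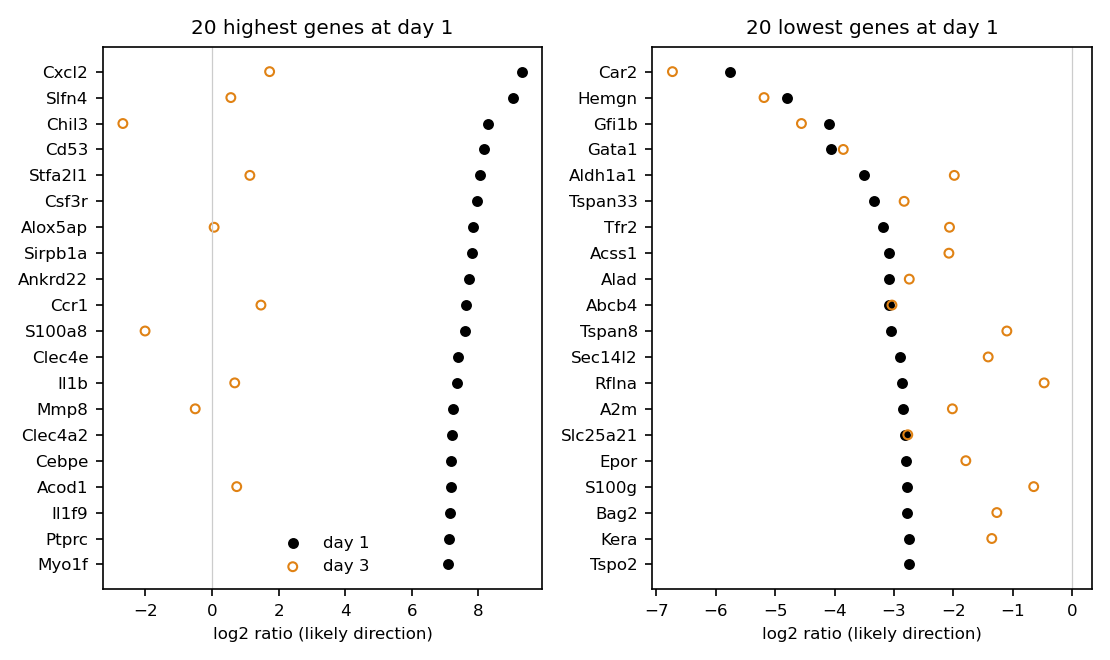
Log2 ratios of the 20 highest genes at day 1 (left panel) and the 20 lowest (right panel), with day 1 as filled points and day 3 as open points where a ratio was given. The highest genes lie between 7.10 and 9.32 at day 1 and between -2.67 and 1.73 at day 3, while the lowest lie between -5.77 and -2.74 at day 1 and below 0 on both arrays where measured.

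Neutrophil genes of every maturation stage were higher. Primary granules form in promyelocytes, secondary and tertiary granules later, and surface receptors of the mature cell last. Of the primary granule genes 6 of 6 with a ratio were 2-fold or more higher, with a median of 5.17. The serine protease genes Ctsg (6.36) and Prtn3 (5.04), the early granulocyte gene Ms4a3 (5.82) and the myeloperoxidase gene Mpo (5.30) were far above Ctsc (2.59), which activates those proteases, and Serpinb1a (1.81), which inhibits them. All 14 secondary and tertiary granule genes were 2-fold or more higher, with a median of 5.69, from Anxa1 at 2.72 to the collagenase gene Mmp8 at 7.25 and Chil3. The gelatinase gene Mmp9 (5.66) and the cathelicidin gene Camp (5.71) lay on either side of the median, and lactoferrin (Ltf) stood at 5.89. Of 15 mature neutrophil genes 15 were 2-fold or more higher, with a median of 5.89. The chemokine receptor gene Cxcr4 (3.42), which retains neutrophils in marrow, was the lowest of them, and Cxcr2 (6.23), through which they leave it, stood higher. The histone citrullinating enzyme Padi4 was at 5.89, and the granulocyte colony-stimulating factor receptor gene Csf3r at 7.97. The highest was Stfa2l1 (8.05), a stefin of a family of similar genes that probes may not tell apart. A ratio was given at day 1 only for 2 primary granule, 2 secondary and tertiary and 6 mature genes. A gene that passed the authors' filter only through the irradiated channel had to be high, so such members add no support. With only genes on both arrays used, 4, 12 and 9 members were 2-fold or more higher and none lower.

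At day 3 these genes lay on both sides of 0. The primary granule list had a median of 0.23 over the 4 genes with a ratio, the secondary and tertiary list -0.64 over 12, and the mature list -0.47 over 9. By the 2-fold rule 2 of 12 secondary and tertiary genes and 3 of 9 mature genes were higher, and 5 and 3 were lower, against 7.35% and 6.85% of all genes at day 3. Mmp9 stood at 1.99 there, the haptoglobin gene Hp at 1.30 and Stfa2l1 at 1.14. Ctsg stood at -1.62, Ngp at -2.43 and S100a8 at -2.01, against 6.36, 5.50 and 7.61 at day 1. Both arrays used unirradiated RNA in the other channel, so the values are set side by side without a test.

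Transcription factors of the myeloid lineage were uneven. Of 16 with a ratio, 6 were 2-fold or more higher and none lower, against 19.6% and 11.1% of all genes, and the list median was 0.57. Cebpe (7.18), needed for secondary granule formation, Gfi1 (5.12), needed for granulocyte commitment, and Spi1 (5.02), which encodes the master myeloid factor PU.1, were the 3 highest. Irf8 (3.18), a monocyte factor, and Cebpb (2.75), a factor of emergency granulopoiesis, were also past 4-fold. Cebpa, which acts before these, stood at -0.13, and the lowest were Klf4 (-0.16), Id2 (-0.49) and Myc (-0.90).

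PU.1 and C/EBP factors bind short motifs, and RefSeq promoter windows (GRCm38.p6) of 250 bases before and 50 after each start could be matched to 8378 of the 10434 genes. Both strands were searched and a gene counted once, and different motifs may overlap and were counted apart. The PU.1 motif GAGGAAGT occurred in 17.4% of 109 genes at least 32-fold higher, 8.33% of 528 genes 4-fold to 32-fold higher, 3.11% of 5822 genes within 2-fold and 1.04% of 96 genes at least 4-fold lower. All genes with a ratio and a window had it in 3.58%. For the C/EBP motif TTGCNNAA the shares were 22.9%, 14.96%, 9.77% and 10.4%, against 10.4% of all. Among primary granule windows the PU.1 motif was in 3 of 5 and the C/EBP motif in 1 of 5. Secondary and tertiary granule windows held them in 2 of 11 and 5 of 11, and mature neutrophil windows in 1 of 13 and 3 of 13. These matches describe letters and not binding. Stretches with a match are shown for the granule genes Prtn3, Mmp8 and Ltf and for Cd37, a leukocyte tetraspanin gene chosen after its value was seen, as examples of genes at least 32-fold higher with a match, as 150 bases before the start with the motif in capitals. They lie at chr10:79879517-79879666 on the plus strand for Prtn3, chr7:45238840-45238989 on the minus strand for Cd37 (day 1 ratio 5.04), chr9:7558279-7558428 on the plus strand for Mmp8 and chr9:111019142-111019291 on the plus strand for Ltf.
Prtn3: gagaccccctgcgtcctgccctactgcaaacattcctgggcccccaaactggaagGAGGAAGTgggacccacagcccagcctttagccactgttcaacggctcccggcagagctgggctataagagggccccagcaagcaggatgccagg
Cd37: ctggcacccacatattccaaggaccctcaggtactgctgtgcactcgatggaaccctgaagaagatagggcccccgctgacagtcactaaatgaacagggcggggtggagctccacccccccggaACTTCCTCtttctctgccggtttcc
Mmp8: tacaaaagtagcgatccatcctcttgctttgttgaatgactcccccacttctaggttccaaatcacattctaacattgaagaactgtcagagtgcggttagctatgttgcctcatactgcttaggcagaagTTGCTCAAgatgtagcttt
Ltf: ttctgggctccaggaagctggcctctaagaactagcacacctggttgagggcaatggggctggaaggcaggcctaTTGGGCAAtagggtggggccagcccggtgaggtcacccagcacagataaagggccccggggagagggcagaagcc

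**Figure D3:**
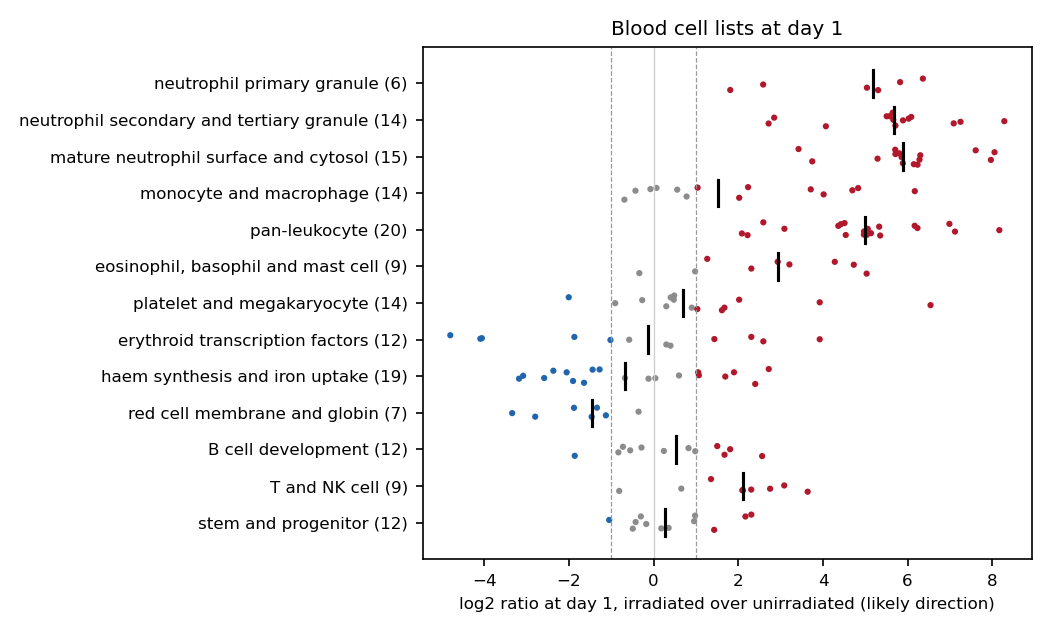
Day 1 log2 ratios of the members of 13 blood cell lists, 1 point per gene, with the number of genes with a ratio in parentheses, black bars at list medians and dashed lines at 2-fold. Red points are 2-fold or more higher and blue points 2-fold or more lower; the 3 neutrophil lists have medians of 5.17, 5.69 and 5.89, and the red cell membrane list -1.46.

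Genes shared by all leukocytes were high together with the neutrophil genes. Of 20 pan-leukocyte genes with a ratio, 20 were 2-fold or more higher, from Lcp2 (2.08) to Cd53, with a median of 5.004. Their part in the other leukocyte and cytokine lists was not tested. At day 3 the median was -0.63 over 13 genes, and Ptprc and Cd53 had no ratio there. A ratio was given at day 1 only for 7 of the 20. A gene that passed the authors' filter only through the irradiated channel had to be high. With only genes on both arrays used, 13 were 2-fold or more higher at day 1 and none lower.

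Within the CXC chemokines, Cxcl2 stood far above the rest. Of 12 with a ratio 3 were 2-fold or more higher and 1 lower, against 19.6% and 11.1% of all genes. The list median was 0.31. Cxcl2 stood at 9.32, while its close relatives Cxcl1 (-0.01) and Cxcl3 (-0.04), which act on the same neutrophil receptor, stood near 0, each on 1 probe. At day 3 the 3 genes were at 1.73, 0.87 and 0.11. The B cell attractant Cxcl13 (1.94) and the interferon-induced Cxcl9 (1.22) were the others past 2-fold, and the platelet chemokine gene Ppbp (-2.01) was the lowest. Cxcl12, the stromal factor that retains stem cells, was at -0.19. The promoters of the 3 neighbouring genes are shown because all of them held the NF-kB motif, searched as GGG, any 2 bases and TTTCC, which was present in 1.93% of all genes with a ratio and a window, although their ratios differ so widely. The 150 bases before the start lie on the plus strand, at chr5:90903749-90903898 for Cxcl2, chr5:90891095-90891244 for Cxcl1 and chr5:90785951-90786100 for Cxcl3, with the motif in capitals. The Cxcl1 and Cxcl2 stretches each held 2 matches and the Cxcl3 stretch 1. Probe sequences were not analysed here, so cross-hybridisation between these similar genes was not assessed.
Cxcl2: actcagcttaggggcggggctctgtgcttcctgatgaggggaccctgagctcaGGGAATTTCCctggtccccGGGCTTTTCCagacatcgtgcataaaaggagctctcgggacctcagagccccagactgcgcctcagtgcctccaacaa
Cxcl1: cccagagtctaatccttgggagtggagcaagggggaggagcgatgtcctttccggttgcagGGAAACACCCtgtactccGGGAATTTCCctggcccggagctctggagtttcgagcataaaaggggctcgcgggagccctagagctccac
Cxcl3: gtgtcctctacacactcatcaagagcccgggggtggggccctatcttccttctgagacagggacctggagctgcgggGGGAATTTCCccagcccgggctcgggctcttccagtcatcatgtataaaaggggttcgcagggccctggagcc

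CC chemokines of phagocytes were high. Of 15 with a ratio, 10 were 2-fold or more higher and 2 (13.3%) lower, against 19.6% and 11.1% of all genes. The lower share was thus near that of all genes, and the median was 1.82. Ccl6 (5.79), Ccl3 (5.76) and Ccl4 (5.56), which attract monocytes and macrophages, were the highest. Ccl2, the main monocyte attractant, was the median member at 1.82. The eosinophil attractant Ccl11 (-1.26) and the membrane-bound Cx3cl1 (-1.05) were lower.

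Chemoattractant receptors of phagocytes were high. Of 16 with a ratio, 10 were 2-fold or more higher and none lower, against 19.6% and 11.1% of all genes. The list median was 2.72. A ratio was given at day 1 only for 6 of the 16. With only genes on both arrays used, 4 receptors were 2-fold or more higher. Ccr1 (7.64), the formyl peptide receptor gene Fpr1 (6.28) and Cxcr2 (6.23) were the highest. The scavenging receptors Ackr4 (-0.72), Ackr3 (-0.27) and Ackr1 (-0.05), carried by stromal and endothelial cells, were the lowest. A further 8 receptors named on the array had no ratio at day 1, including the lymphocyte homing receptor gene Ccr7.

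Cytokine ligands were mostly higher, with 15 of 26 (57.7%) 2-fold or more higher and 4 (15.4%) lower, and a median of 1.13. The shares of all genes were 19.6% and 11.1%, so the lower share was near that of all genes. Il1b (7.36), the inflammatory ligand Tnf (5.003) and the B cell survival factor Tnfsf13b (4.64) were the highest, and Csf3 (3.81), which encodes granulocyte colony-stimulating factor, was also past 8-fold. The lowest were Il33 (-1.47), an alarmin of stromal nuclei, Tnfsf11 (-1.32), the osteoclast differentiation factor RANKL, and Il34 (-1.21), a ligand of the macrophage growth factor receptor. Genes that feed back on NF-kB, the transcription factor downstream of these cytokines, were higher in 13 of 17 with none lower, and their median was 1.43. The inhibitor genes Nfkbie (3.24) and Nfkbiz (2.77) and the apoptosis inhibitor gene Birc3 (2.56) led, while the subunit genes Rela (-0.26) and Relb (0.08) stood near 0.

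Pattern recognition and phagocyte effector genes were high with a graded order. Of 16 toll-like receptors and adaptors, 12 were 2-fold or more higher and none lower, against 19.6% and 11.1% of all genes. The list median was 1.84. The lipopolysaccharide co-receptor gene Cd14 (5.71), Tlr13 (5.57) and Tlr1 (4.61) led, whereas Tlr3 (-0.34), a sensor of double-stranded RNA also found in stromal cells, was the lowest. Inflammasome genes were higher in 8 of 9, with a median of 2.67, led by the sensor gene Nlrp3 (5.08) next to Il1b, and Il18 (0.85) was the 1 within 2-fold. Subunits of the phagocyte oxidase stood at 6.97 for Cybb, 6.21 for Ncf1 and 5.06 for Rac2, and the widely expressed Rac1 at 0.36. Fc receptor and immunoreceptor genes were higher in 15 of 17 with none lower, and a median of 4.79. Sirpb1a (7.81), Clec4e (7.39) and the kinase gene Fgr (6.99) were at the top, and the neonatal Fc receptor gene Fcgrt (-0.62) at the bottom. Tlr13, Tlr1, Nlrp3, Sirpb1a and Clec4e had a ratio at day 1 only. A gene that passed the authors' filter only through the irradiated channel had to be high. With only genes on both arrays used, 10 toll-like, 7 inflammasome and 10 Fc receptor and immunoreceptor genes were 2-fold or more higher.

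Enzymes of lipid mediators ranged widely. Among leukotriene enzymes Alox5ap stood at 7.82, Alox5 at 6.72, Lta4h at 3.26 and Ltc4s at 1.73. Among prostaglandin enzymes the inducible cyclooxygenase gene Ptgs2 stood at 5.05 and the constitutive Ptgs1 at 0.77. The prostacyclin synthase gene Ptgis (-0.76), Hpgd (-0.83), which degrades prostaglandins, and Ptges2 (-1.66) were the lowest 3. Over the list 6 of 11 were 2-fold or more higher and 1 lower, against 19.6% and 11.1% of all genes.

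Interferon-induced effector genes were high, and GTPases and regulators less uniformly so. Of 26 effectors with a ratio 25 were 2-fold or more higher, against 19.6% of all genes, with a median of 2.68 (6.41-fold). Oas2 (6.48) and Oas1a (6.25), synthases that activate RNase L, and the membrane antiviral gene Ifitm1 (6.38) were the highest, Herc6 (2.50) lay near the median, and Ifitm2 (0.92) was the 1 within 2-fold. Interferon-inducible GTPases were lower on the scale, with 5 of 8 2-fold or more higher and a median of 1.69, from Gbp5 (-0.15) to Gbp7 (2.86). Among 22 regulators, 8 were 2-fold or more higher and 1 lower, where 11.1% of all genes were lower. The highest were Stat4 (5.22), a lymphoid and myeloid factor, Irf5 (4.48) and Irf7 (3.82), which amplifies type I interferon production, and the lowest was Stat5a (-1.59), a factor of erythropoietin signalling. Irf1 (0.15) and the feedback gene Socs1 (-0.34), both induced by interferon gamma, were near 0. At day 3 the effector median was 0.58 and the GTPase median 1.39.

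The interferon response element, searched as GAAA, any 2 bases and GAAA, occurred in the windows of 10 of 18 effector genes and 5 of 5 GTPase genes that had one, against 3.66% of all 8378. By size it was in 8.26% of genes at least 32-fold higher and 1.04% of genes at least 4-fold lower. Stretches of 150 bases before the start are shown for 4 effectors with high ratios and for Gbp7, the highest GTPase gene, to let the position of the element be compared, with the element in capitals. Coordinates are chr5:120907526-120907675 (minus strand) for Oas1a, chr7:104465194-104465343 (minus) for Trim30a (4.98), chr19:34583379-34583528 (plus) for Ifit3 (4.81), chr12:26456453-26456602 (minus) for Rsad2 (4.77) and chr3:142530186-142530335 (plus) for Gbp7. The element of Oas1a began 20 bases before the start and overlapped a second match, while those of Ifit3 and Rsad2 began 122 and 120 bases before it.
Oas1a: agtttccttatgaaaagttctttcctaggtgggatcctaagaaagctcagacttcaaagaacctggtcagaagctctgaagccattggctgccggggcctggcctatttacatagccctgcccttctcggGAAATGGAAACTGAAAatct
Trim30a: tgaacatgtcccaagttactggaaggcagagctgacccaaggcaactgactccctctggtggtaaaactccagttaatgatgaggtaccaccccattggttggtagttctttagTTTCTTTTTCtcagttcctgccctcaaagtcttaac
Ifit3: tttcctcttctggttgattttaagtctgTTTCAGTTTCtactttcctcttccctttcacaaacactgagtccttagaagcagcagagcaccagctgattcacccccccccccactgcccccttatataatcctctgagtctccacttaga
Rsad2: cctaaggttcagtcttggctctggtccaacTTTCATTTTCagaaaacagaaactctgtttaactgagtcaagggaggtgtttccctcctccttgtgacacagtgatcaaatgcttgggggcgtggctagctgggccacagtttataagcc
Gbp7: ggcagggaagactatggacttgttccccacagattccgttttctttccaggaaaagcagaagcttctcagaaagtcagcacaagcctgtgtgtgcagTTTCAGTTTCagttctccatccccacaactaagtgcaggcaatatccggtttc

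Antigen presentation genes spanned both high and near-zero ratios. In class I presentation 4 of 9 were 2-fold or more higher, led by the peptide transporter genes Tap1 (2.32) and Tap2 (2.14), with Canx (-0.13) and Pdia3 (0.38), general chaperones of the endoplasmic reticulum, near 0. The immunoproteasome subunits Psmb8 (2.60) and Psmb9 (2.55) were higher while the 29 constitutive proteasome genes ranged only from -0.52 to 0.47. In class II presentation the protease gene Ctss (5.01), H2-Aa (4.57), the invariant chain gene Cd74 (4.55) and Cd86 (3.57) were higher, and the class II transactivator gene Ciita stood at -0.16. Of 15 complement genes 7 were 2-fold or more higher and 1 lower, against 19.6% and 11.1% of all genes. C5ar1 stood at 5.92, the properdin gene Cfp at 4.96 and C1qb at 4.83. C1s1 (-1.09), Serping1 (-0.87) and Cfb (-0.75) were the lowest.

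Other leukocyte lists were less complete. Of 14 monocyte and macrophage genes, 8 were 2-fold or more higher and none lower, and the list median was 1.53. Ccr2 (6.17), a receptor of inflammatory monocytes, and the complement genes C1qb and C1qa (4.69) stood far above the macrophage growth factor receptor gene Csf1r (0.78), the engulfment receptor genes Mertk (0.07) and Axl (-0.43) and fibronectin (Fn1, -0.69). Eosinophil, basophil and mast cell genes were higher in 7 of 9, with a median of 2.93. The mast cell protease gene Cpa3 (5.03), the eosinophil ribonuclease gene Ear6 (4.73) and the basophil protease gene Mcpt8 (4.28) led them. Only 9 of 24 named T and NK cell genes had a ratio, and 7 of these were 2-fold or more higher, led by Nkg7 (3.64), Ccl5 (3.09) and Cd3d (2.75). For B cell development 12 of 26 named genes had a ratio, 4 higher and 1 lower, from the pre-B surrogate light chain gene Vpreb1 (-1.86) to Ly6d (2.56). Pax5, Cd79a, Rag1 and Rag2 had no ratio. In the stem and progenitor list 3 of 12 were 2-fold or more higher and 1 lower. Gata2 (2.31), Cd27 (2.17) and Mycn (1.43) were at the top and Hoxa5 (-1.05) at the bottom. Among all genes 19.6% were 2-fold or more higher and 11.1% lower. A member with a ratio may have passed the authors' filter through the channel where it is high, so these counts cover only the members with a ratio.

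Many erythroid genes were lower, while the transcription factors of the list lay on both sides. Of 12 erythroid factors 5 were 2-fold or more lower and 4 higher, against 11.1% and 19.6% of all genes. Their median of -0.14 turned positive when the density peak (0.05) or ribosomal protein genes (0.37) were set to 0. Hemgn (-4.80), Gfi1b (-4.09), Gata1 (-4.06), Tal1 (-1.87) and Bcl11a (-1.02), which also acts in lymphocytes, were lower. Nfe2 (3.92), Ikzf1 (2.59), Gata2 (2.31) and Klf3 (1.43), which also act in platelets, lymphocytes, mast cells or granulocytes, were higher. Klf1, the erythroid master factor, had no ratio. Of the 7 red cell membrane and surface genes with a ratio 6 were 2-fold or more lower, with a median of -1.46. Tspan33 (-3.34), Epor (-2.80) and the anion exchanger gene Slc4a1 (-1.88) were the lowest, and the iron-sulphur assembly gene Ciao3 (-0.36), which is no membrane gene, the highest. A further 10 named members, among them the skeleton genes Ank1, Sptb and Epb42, had no ratio at day 1.

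Haem synthesis and iron handling genes lay on both sides. Of 19 genes, 9 were 2-fold or more lower and 6 higher, against 11.1% and 19.6% of all genes, and the median was -0.68. The pathway enzymes Alad (-3.08), Cpox (-2.59), Urod (-2.06), Uros (-1.90) and Fech (-1.44) were lower, while Ppox stood at 0.04. Alas1 (2.40), the non-erythroid first enzyme of the pathway, was higher, and erythroid Alas2 had no ratio. The haem-degrading enzyme gene Hmox1 (2.72), the iron exporter gene Slc40a1 (1.90) and the ferritin genes Fth1 (1.07) and Ftl1 (1.05) were on the higher side. The same enzymes were still low at day 3, Alad at -2.74 and Cpox at -2.38. The GATA motif AGATAA occurred in 15.6% of windows of genes at least 4-fold lower, 8.16% of those within 2-fold and 12.8% of those at least 32-fold higher. Among all 27025 genes with a window, with a ratio or without, the share was 12.7%, close to that of the highest class. The motif was in 2 of 14 haem and iron windows and in 2 of 5 of the red cell list, which holds Epor. The Epor window is shown because Epor had the lowest ratio among red cell list members with a match in the stretch shown. This stretch lies at chr9:21963577-21963726 on the minus strand. The motif, in capitals as its reverse complement, begins 54 bases before the start.
Epor: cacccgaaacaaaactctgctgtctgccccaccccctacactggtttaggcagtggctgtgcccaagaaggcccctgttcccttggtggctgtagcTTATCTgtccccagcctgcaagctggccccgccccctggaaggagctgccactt

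Of 9 carbonic anhydrases with a ratio, Car2 included, 4 were 2-fold or more lower and 1 higher, against 11.1% and 19.6% of all genes. Car12 stood at -1.71, Car3 at -1.44 and Car7 at 1.65, and the 4 within 2-fold included Car11 (-0.08) and Car5a (-0.64). Platelet and megakaryocyte genes were mixed. Of 14, 6 were 2-fold or more higher and 1 lower, from Ppbp (-2.01) and the glycoprotein gene Gp1bb (-0.91) to Plek (6.54), a protein kinase C substrate of platelets that leukocytes share. The platelet integrin gene Itga2b was at 1.03.

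Targets of p53 were higher and covered arrest, feedback and death. Of 28 with a ratio, 18 were 2-fold or more higher and none lower, against 19.6% and 11.1% of all genes. The list median was 1.52. The proapoptotic gene Pmaip1 (5.66), the stress gene Trp53inp1 (3.71) and the kinase gene Plk3 (3.33) were the highest. The repair target Xpc stood at 2.19 and its partner Ddb2 at 0.36, and Sesn1 (-0.72) and the ribonucleotide reductase subunit gene Rrm2b (-0.47) were the lowest. At day 3 the list median was 1.03 and 16 of 30 were higher by the 2-fold rule, against 7.35% of all genes, with Pmaip1 at 2.79, and Plk2 stood at 2.42 on the day 1 array and 2.27 on the day 3 array. In the Bcl2 family, which decides on mitochondrial apoptosis, 4 of 13 were 2-fold or more higher and none lower. The prosurvival genes Bcl2a1c (5.91) and Mcl1 (2.50), both active in granulocytes, stood there together with Pmaip1 and Bid (1.68), while Bcl2 (-0.89), Bok (-0.61) and Bcl2l1 (-0.29) were the lowest. Among CDK inhibitors Cdkn1a was at 2.23, Cdkn3 at 2.13, Cdkn2c at -0.21 and Cdkn1c at -1.71.

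Repair genes as a group were not high. Of 25 double-strand break repair genes 1 was 2-fold or more higher, Dclre1c (2.56), and 4 were lower, Rad51b (-1.50), the Ku genes Xrcc5 (-1.35) and Xrcc6 (-1.06), and the kinase gene Atr (-1.02). Excision and mismatch repair had 4 of 27 higher and 5 lower, from the uracil glycosylase gene Ung (-2.06) to Xpc. Among all genes 19.6% were 2-fold or more higher and 11.1% lower. The medians of -0.26 and -0.38 turned positive, to 0.25 and 0.13, with ribosomal protein genes at 0.

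The medians of the replication and mitotic exit lists lay on opposite sides of 0 at day 1. Of 39 genes of origin loading and the replication fork, 10 were 2-fold or more lower and none higher. Among all genes the shares were 11.1% and 19.6%, and the list median was -0.73. Mcm10 (-1.50), the clamp loader gene Rfc4 (-1.30) and the primase gene Prim1 (-1.26) were the lowest. The members above 0 were Pold1 (0.86), Cdc45 (0.84), Rfc2 (0.79), Orc4 (0.56) and Rfc1 (0.23). With ribosomal protein genes at 0, none of the 39 was 2-fold or more lower and 4 were higher. Deoxynucleotide synthesis was split, with 7 of 14 2-fold or more lower and 3 higher. With ribosomal protein genes at 0, its counts were 2 lower and 3 higher. The thymidine kinase gene Tk1 (-2.02), Dut (-1.68) and the thymidylate synthase gene Tyms (-1.19) were the lowest. The highest were Samhd1 (3.80), a phosphohydrolase of myeloid cells that degrades deoxynucleotides, the salvage kinase gene Dck (3.11) and mitochondrial Tk2 (1.60).

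Genes of the mitotic exit and cytokinesis list were higher in 13 of 27 with none lower, and their median was 0.89. The list also holds genes of earlier mitotic steps, Cdc25b and Kif11 among them. The phosphatase gene Cdc25b (1.98), the kinesin gene Kif23 (1.90) and the securin gene Pttg1 (1.55) were at the top, Kif11 (0.89) was the median member, and Kif22 (-0.64), the separase gene Espl1 (-0.57) and Fzr1 (-0.09) were at the bottom. With ribosomal protein genes at 0, 21 of the 27 were 2-fold or more higher. Kinetochore and checkpoint genes had a median of 0.32, with 5 of 26 higher and 2 lower, and the higher share was near the 19.6% of all genes. Cdca8 (1.70), Cenpe (1.67) and Nuf2 (1.39) led, and Incenp (-2.48), whose product sits in the same passenger complex as that of Cdca8, was the lowest. At day 3 the medians of the mitotic and kinetochore lists were -2.79 and -1.62, and that of the replication list -1.77, so the lists differed in sign at day 1 and shared it at day 3. The E2F motif TTTNNCGC was in 12 of 32 replication windows, 6 of 25 mitotic exit windows and 2 of 23 kinetochore windows, against 9.51% of all, and in 2.75% of genes at least 32-fold higher. Among cyclins, Ccna2 of S phase and mitosis was at -0.57, Ccnb2 of mitosis at 1.03, and Ccng1 (3.15) and Ccng2 (2.93) were the highest. Of 10 E2F and Rb family genes 3 were 2-fold or more lower, E2f4 (-1.44), E2f2 (-1.25) and E2f5 (-1.22), and 2 higher, Tfdp1 (1.11) and E2f3 (1.04). With ribosomal protein genes at 0, none of this family was 2-fold or more lower.

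**Figure D4:**
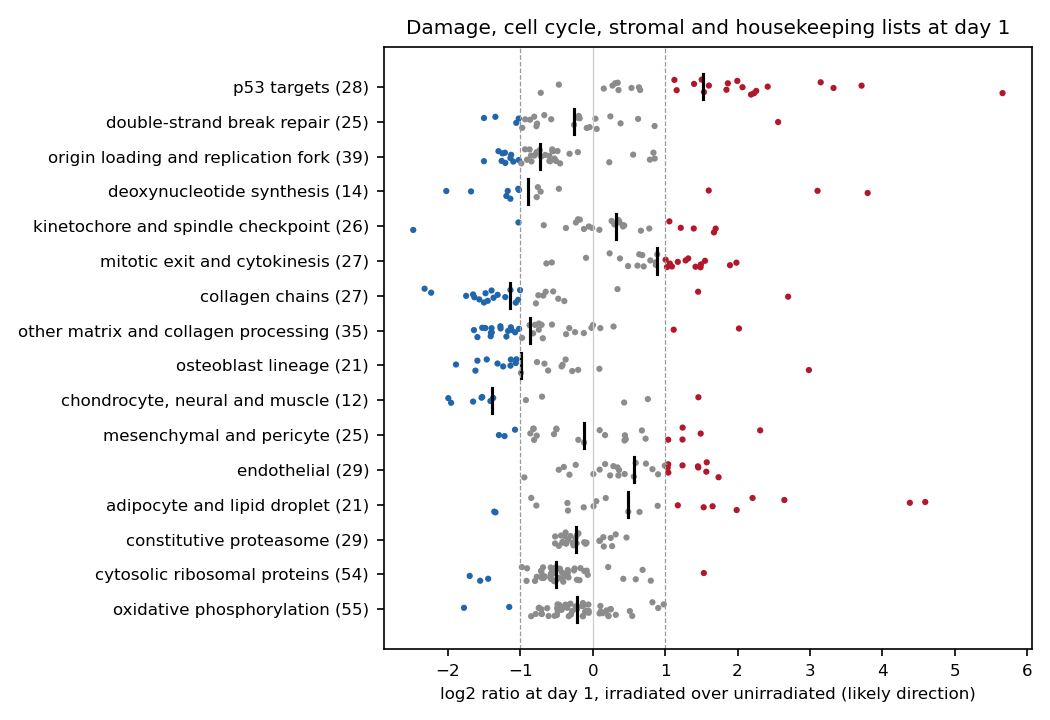
Day 1 log2 ratios of the members of 16 damage, cell cycle, stromal and housekeeping lists, 1 point per gene, with the number of genes with a ratio in parentheses, black bars at medians and dashed lines at 2-fold. The collagen list has 17 blue points (2-fold or more lower) of 27 and a median of -1.14, the p53 list 18 red points (2-fold or more higher) of 28, and the proteasome list spans -0.52 to 0.47.

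Many collagen and other matrix genes were lower, with exceptions among basement membrane and fibril-associated chains. Of 27 collagen chains, 17 were 2-fold or more lower and 2 higher, against 11.1% and 19.6% of all genes, and the median was -1.14 (2.20-fold). Col27a1 (-2.32), the growth plate chain gene Col10a1 (-2.23) and Col13a1 (-1.75) were the lowest. Cartilage chains were among them, with Col2a1 at -1.65 and Col9a2 at -1.64, and so were the fibrillar bone chains Col1a1 (-1.14) and Col1a2 (-1.06). The basement membrane chains Col4a1 (1.46) and Col4a2 (0.34) and the fibril-associated Col20a1 (2.70) were the 3 above 0. Of 35 other matrix and processing genes 16 were 2-fold or more lower and 2 higher, with a median of -0.87. The small proteoglycan gene Fmod (-1.64), the bone matrix gene Sparc (-1.59) and the vessel laminin gene Lama4 (-1.53) were the lowest, and thrombospondin 1 (Thbs1, 2.02) and Lama5 (1.12) the highest. With ribosomal protein genes at 0, the counts 2-fold or more lower were 6 collagens and 3 other matrix genes. At day 3 the medians were -0.43 and 0.12. The pan-leukocyte list, at 5.004 on this array, moved the opposite way, and its part in the low matrix ratios was not tested.

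Of 21 osteoblast lineage genes 10 were 2-fold or more lower and 1 higher, against 11.1% and 19.6% of all genes. Their median was -0.99. The parathyroid hormone receptor gene Pth1r (-1.89) and the alkaline phosphatase gene Alpl (-1.62) were lowest with Sparc, the osteopontin gene Spp1 stood at the median (-0.99), and the 1 higher gene was Satb1 (2.99), a chromatin organiser better known from lymphocytes. Runx2, Sp7 and Sost had no ratio. Cartilage genes led the list of chondrocyte, neural and muscle genes, where 7 of 12 were 2-fold or more lower with a median of -1.40. Matn3 stood at -1.997, the fast troponin gene Tnnt3 at -1.96 and the chondrogenic factor Sox9 at -1.53. With ribosomal protein genes at 0, 3 osteoblast genes and 5 of this last list were 2-fold or more lower. Osteoclast genes ranged from Car2 to Mmp9 (5.66), with the fusion gene Dcstamp at 4.05, Ctsk at -0.57 and a median of 0.68.

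Signalling lists of the skeleton and stroma differed in their shares past 2-fold. In the Wnt list 6 of 20 were 2-fold or more lower and none higher, and the list median was -0.62. Wnt4 (-2.58), the antagonist gene Dkk2 (-1.53) and the receptor gene Fzd8 (-1.42) were the lowest. With ribosomal protein genes at 0, the Wnt counts were 2 lower and 3 higher. In the TGF-beta, activin and BMP list 4 of 22 were lower, among them the BMP antagonist gene Nog (-1.64), Bmp3 (-1.61) and Bmp1 (-1.23). The activin subunit gene Inhba (1.97) and its antagonist Fst (1.28) were the 2 higher genes, and the median of -0.36 turned to 0.15 with ribosomal protein genes at 0. In the IGF system Igfbp6 (-1.37) and Igfbp5 (-1.03) were lower and Igf1r (2.02) higher, and the ligand genes Igf1 (-0.22) and Igf2 (-0.14) were near 0. Stem cell niche factors had 4 of 22 higher and 3 lower with a median of 0.03, near the 19.6% and 11.1% of all genes. Ptn (-2.60), which encodes pleiotrophin, the cadherin gene Cdh2 (-1.19) and Prrx1 (-1.06) were the lowest, and Il15 (1.92), Lif (1.78) and Il6 (1.36) the highest.

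Of 29 endothelial genes 9 were 2-fold or more higher and none lower, and the list median was 0.57. The endothelial cadherin gene Cdh5 (1.74), Vegfa (1.57) and the guidance receptor gene Robo4 (1.57) were the highest, Sox17 (0.57) the median member, and Vegfb (-0.95), Cldn5 (-0.47) and Vegfc (-0.40) the lowest. Among 25 mesenchymal and pericyte genes, 5 were higher and 3 lower, shares near the 19.6% and 11.1% of all genes. The smooth muscle genes Tagln (1.49) and Acta2 (1.04), the pericyte gene Rgs5 (1.24) and the adhesion gene Alcam (2.31) were among the higher, and S100a4 (-1.30), Pdgfra (-1.22) and Cspg4 (-1.07) were the lower ones. The median of -0.12 turned positive when 0 was placed at the density peak (0.07) or at the ribosomal protein median (0.39). Adipocyte genes had 8 of 21 higher and 2 lower with a median of 0.49. The triglyceride synthesis enzymes Dgat1 (4.59) and Dgat2 (4.38) and the fatty acid activating enzyme Acsl1 (2.65) were highest, and the adipokine gene Adipoq (-1.36), the desaturase gene Scd1 (-1.34) and Cidea (-0.85) lowest. Metalloproteinases had 4 of 28 higher (14.3%) and 3 lower (10.7%), so neither share exceeded the 19.6% and 11.1% of all genes. The higher were led by the neutrophil enzymes Mmp8 (7.25), Mmp9 (5.66) and Mmp25 (3.75). The lower were Mmp3 (-2.05), its inhibitor Timp1 (-1.65) and Mmp16 (-1.16).

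Glycolysis genes lay on both sides. Of 22 genes 7 were 2-fold or more higher and 3 lower, with a median of 0.68. The lactate exporter gene Slc16a3 (4.54), the glucose transporter gene Slc2a3 (4.29), the isomerase gene Gpi1 (2.73) and Gapdh (2.69) were higher, and the phosphofructokinase genes Pfkm (-2.46) and Pfkl (-1.59) and the kinase gene Pdk1 (-1.11) lower. Glutathione and antioxidant genes had 6 of 29 higher and 8 lower. The glutathione reductase gene Gsr (4.45), Prdx5 (3.03) and Hmox1 were at the top, and red cell peroxiredoxin Prdx2 (-1.80), Gstm5 (-1.77) and the glutathione synthetase gene Gss (-1.59) at the bottom. Cholesterol synthesis had 5 of 17 lower, among them Sqle (-1.72), Mvk (-1.56) and Fdft1 (-1.38), while the cholesterol exporter gene Abcg1 stood at 3.08. Of 22 immediate early genes 6 were 2-fold or more higher and 0 lower, against 19.6% and 11.1% of all genes, with Fosl1 (5.31), Dusp2 (2.32) and Dusp6 (1.87) the highest and Myc (-0.90) the lowest. In the circadian clock Nr1d1 (-1.71), Bhlhe40 (-1.52) and Dbp (-1.03) were lower, and Nfil3 (2.06), Cry1 (1.87) and Per3 (1.13) higher, and the hour of sampling was not analysed here.

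Large complexes of all cells had few genes past 2-fold. The 29 constitutive proteasome genes had an SD over genes of 0.28 and none past 2-fold, where 30.7% of all genes were. Of 55 oxidative phosphorylation genes 53 were within 2-fold, with an SD over genes of 0.49 and Atp5o (-1.78) the lowest. Of 54 ribosomal protein genes 50 were within 2-fold, and 48 were below 0, with a median of -0.51, Rpl38 at -1.70 and Rps12 at 1.53. Common reference genes were far apart: Gapdh (2.69), Actb (1.64) and B2m (1.36) were higher, while Ppia (-0.76) and Eef1a1 (-0.89) lay below 0.

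Motif shares differed between classes of day 1 ratio. Between genes within 2-fold and genes at least 32-fold higher the PU.1 share went from 3.11% to 17.4% and the C/EBP share from 9.77% to 22.9%. The E2F share went the other way, from 10.3% to 2.75%, which is 3 of 109 genes. Over all 27025 genes with a window it was 5.93%, against 9.51% of those that also had a ratio. The NF-kB share was 1.92% within 2-fold and 3.67% in the highest class, which is 4 of 109 genes. Genes within a class share cell types and gene families, so the shares are descriptions without a test.

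**Figure D5:**
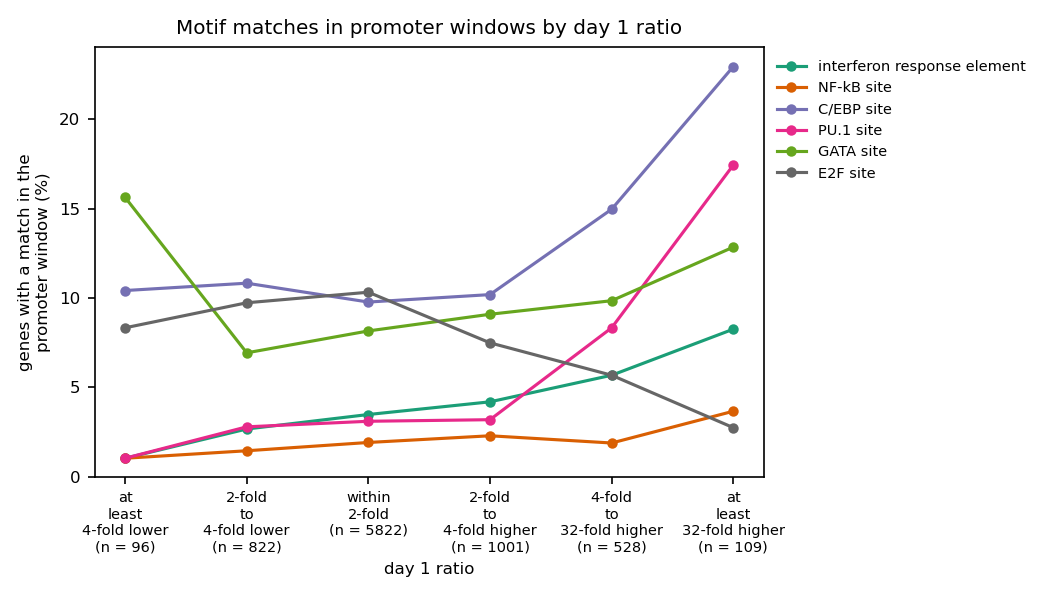
Percent of genes with at least 1 match of each of 6 motifs in a RefSeq promoter window, by class of day 1 ratio from at least 4-fold lower (96 genes) to at least 32-fold higher (109 genes). The PU.1 line reaches 17.4% and the C/EBP line 22.9% in the highest class, the GATA line is at 15.6% in the lowest class, and the E2F line is at 2.75% in the highest.

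Which genes had a ratio differed between the arrays. Ratios were given at day 1 but not at day 3 for 634 genes, and 366 of these (57.7%) were 2-fold or more higher at day 1 and 11 lower, with a median of 1.19. Genes with a ratio on both arrays numbered 9800, and 17.2% of them were 2-fold or more higher. A gene that passed the authors' filter only through the irradiated channel had to be high, so this share is no separate support. The same limit holds for list members with a ratio at day 1 only. Examples are 5 of 17 Fc receptor and immunoreceptor genes, 4 of 15 CC chemokines and 5 of 26 cytokine ligands. Others are 3 of 16 toll-like genes and 2 of 11 lipid mediator genes. Of the 139 genes at least 32-fold higher at day 1, 52 had no ratio at day 3, 53 were within 2-fold there, 19 were 2-fold or more higher and 15 2-fold or more lower. Of the 116 genes at least 4-fold lower at day 1, 112 had a ratio at day 3, where 55 were 2-fold or more lower, 57 within 2-fold and none higher.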

How the data were processed

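Each of the 2 arrays compared 2 RNAs: unirradiated (Cy5) and irradiated (Cy3), per the labels. The authors deposited 1 log ratio per probe, and base 2 (log2) is assumed here. Background correction, normalization, numerator and the rule behind empty entries are not given in the sources used here. Signal intensities were not used here, so depth is unknown and the number of arrays limits precision.

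Of 23473 probes, 9515 (40.5%) had no day 1 ratio. The platform annotation gave 16631 probes 1 gene symbol, none several and 6842 none. Symbols were updated through RefSeq names. Probes of a gene were averaged and the median over genes was subtracted. Genes at least 2-fold or 4-fold from 0 were counted, overall and in 72 gene lists, some sharing members. Promoter windows came from RefSeq (GRCm38.p6). Counting was tested on simulated data. No replicate, test or p-value exists for a single array per time.

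Members and lists were chosen with earlier results of these data known. Named genes were the 20 highest and 20 lowest and, per list, the 3 highest, the 3 lowest, the member nearest the median and members opposite in sign to most. Other named genes were chosen after their values were seen. Alternatives were other centrings, probe rules, gene sets and fold thresholds.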

Additional observations from a re-analysis of the deposited data

Results flagged for a closer look

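The following genes with a named value were at least 2-fold on one side at day 1 and at least 2-fold on the other at day 3. Each time point has 1 array, so the difference was not tested, and both arrays used unirradiated RNA. Values are log2 ratios, positive where irradiated RNA is read as higher.

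Granulocyte and phagocyte genes were high at day 1 and low at day 3. Chil3 stood at 8.28 and then at -2.67, S100a8 at 7.61 and -2.01, Wfdc21 at 7.09 and -1.35, and Ctsg at 6.36 and -1.62. The receptor gene Trem3 was at 5.29 and -2.07, the oxidase genes Ncf1 at 6.21 and -2.22 and Rac2 at 5.06 and -3.09, and the inflammasome adaptor gene Pycard at 2.08 and -1.07.

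Genes of dividing cells gave the same order. The mitotic genes Nuf2 (1.39 and -2.67) and Cdkn3 (2.13 and -1.95) were among them, with the DNA glycosylase gene Neil3 (1.35 and -2.41) and the nucleoside kinase gene Dck (3.11 and -1.44). So did the lymphoid genes Ikzf1 (2.59 and -1.88), Ly6d (2.56 and -1.39) and Mzb1 (1.81 and -1.16). The adipokine gene Adipoq ran the other way, from -1.36 to 1.06.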

How the results depend on the processing

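With the median of ribosomal protein genes set to 0, 3319 genes were 2-fold or more higher and 374 lower. A 1.5-fold rule gave 3069 higher and 2536 lower genes, so 54.8% of those past it were higher, against 63.9% in the main setting. A 4-fold rule gave 803 higher and 116 lower. List medians kept their sign in 60 of 72 lists under every alternative, and no reversed list had a median beyond 0.38 from 0. With the density peak at 0 the medians that turned positive were Bcl2 family 0.17, erythroid factors 0.053, mesenchymal genes 0.072, metalloproteinases 0.00025, IGF system 0.069 and chaperones 0.093. With ribosomal protein genes at 0 they were Bcl2 family 0.49, double-strand break repair 0.25, excision repair 0.13, erythroid factors 0.37, mesenchymal genes 0.39, metalloproteinases 0.32, TGF-beta 0.15, IGF system 0.38, circadian clock 0.29, oxidative phosphorylation 0.29, proteasome 0.27 and chaperones 0.41. The Bcl2 median was also positive with 1-probe genes (0.26) and with genes on both arrays (0.033). Using only genes on both arrays moved some medians by at least the SD between probes, 0.76, without a change of sign. Among these were the primary granule, leukotriene and prostaglandin, and chemoattractant receptor lists. These settings move every gene by one amount or leave genes out. No paired analysis was possible because each time point has 1 array. No replicate could be left out, and signal over background was not used here.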

Other observations

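Genes at least 4-fold higher at day 1 lay next to each other in places. Of 10393 genes placed in RefSeq order, 41 lay in 8 runs of at least 4 neighbours with a ratio that were all at least 4-fold higher. No such run was found on the lower side, where few could form. There only 116 genes (1.11%) were past 4-fold, against 803 (7.70%) on the higher side. The longest, of 9 genes on chromosome 11, held the chemokine genes Ccl5, Ccl9, Ccl6, Ccl3 and Ccl4 with Wfdc18 and Wfdc21. A run of 7 on chromosome 6 held the C-type lectin genes Clec4a1, Clec4a3, Clec4a2, Clec4n, Clec4d and Clec4e with the scavenger receptor gene Cd163. On chromosome 17, Psmb9, Tap1, Psmb8, Tap2 and H2-Aa formed a run within the major histocompatibility complex. Neighbours in a run are often similar copies, and probe sequences were not analysed here.

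Probes without a gene name had a like spread. Of 3432 with a day 1 ratio, 714 (20.8%) were at least 2-fold higher and 329 (9.59%) lower, and 49 were at least 32-fold higher.

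Lysosomal genes were at least 2-fold higher in 8 of 28 and lower in 1, against 19.6% and 11.1% of all genes. The lower gene was Ctse (-2.34), which encodes an aspartic protease. Among aldehyde dehydrogenases Aldh1a1 (-3.51) was the lowest of 14, and Aldh8a1 (2.59), Aldh2 (2.36) and Aldh3b1 (2.33) the highest.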
